A study of Mus musculus with 24 samples.

Results

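Collagens outside the classical fibril-forming types were followed in primary mouse osteoblasts, the bone-forming cells, over 28 days of culture. The genes were taken by symbol from the platform annotation (Col, a number, the letter a, a number). Each gene had 1 transcript cluster, the array's unit of measurement, and where a gene had more than 1, the cluster with the highest mean over the 24 arrays was used. The 10 fibril-forming genes Col1a1, Col1a2, Col2a1, Col3a1, Col5a1, Col5a2, Col5a3, Col11a1, Col24a1 and Col27a1 were left out. This gave 34 of the 22180 genes measured. Of the 34, 32 reached the median of their array on at least 3 of the 24 arrays and were tested, while Col6a4 and Col6a5 did so on 1 array each and were not tested. Col11a2 is counted among the 34 because it is not on the list left out, although it encodes a chain of a fibril-forming cartilage collagen.

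Cells were released with collagenase and trypsin from the skull vault (calvaria) of pups aged from 7 to 10 days, either C57BL/6J wild type or knockout for β-arrestin 2 (gene Arrb2) on that background. From day 3, cells of passage 2 were given ascorbic acid (50 mg/L) and β-glycerophosphate (5 mM), additions with which osteoblasts lay down and mineralise matrix. Day 2 cells of both genotypes had therefore not received them, and cells of days 5, 10 and 28 had. Each of the 8 groups (2 genotypes by 4 days) held 3 arrays from independently prepared cultures, each hybridised with 100 ng of RNA. Which part of Arrb2 was deleted, how many pups went into a preparation and their sex were not given in the sources used.

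Collagens are built from chains wound into a helix. Some types, such as IV, VI, VIII and IX, combine chains encoded by separate genes, and others, such as XIV, XV and XVIII, are built from the chain of a single gene. The non-fibrillar members do not form the thick fibrils of bone themselves: collagen IV makes the sheet of basement membranes, collagen VI makes beaded filaments around cells, collagens VIII and X make open networks, and the fibril-associated collagens (FACITs) sit on the surface of collagen I or II fibrils. Others lie close to basement membranes (the multiplexins XV and XVIII), anchor epithelia (VII) or span the cell membrane (XIII, XVII, XXIII and XXV).

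The Arrb2 signal went against the labels, being higher on arrays labelled knockout. Its mean was 7.09 ± 0.29 (SD, n = 3) against 5.88 ± 0.13 on day 2 and 6.69 ± 0.09 against 5.11 ± 0.1 on day 5 (limma adjusted p = 0.0206 and 0.000357), and the differences on days 10 and 28 were 0.82 and 0.40 (adjusted p = 0.0932 and 0.797). Genotypes are therefore named as labelled throughout. All values are log2 RMA signals as deposited, on which a difference of 1 is a 2-fold change. A gene's level on its probes was not set against another gene's, except that changes in the difference between partner chains were tested. Array medians lay between 4.55 and 4.72, and for genes near them the size of a change is uncertain because no detection call was used. Of 7 osteoblast marker genes measured, Ibsp, Bglap and Phex rose between day 2 and day 28 in both labelled genotypes. Sp7, the osterix gene, fell in the labelled wild type (-1.55, limma adjusted p = 0.0428) and did not pass in the labelled knockout (-0.61, adjusted p = 0.454).

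Between day 2 and later days 11 collagen genes rose in at least 1 labelled genotype and no collagen gene fell, in the fit without a replicate block. They were Col14a1 and Col16a1 among the fibril-associated collagens, both multiplexins (Col15a1 and Col18a1), Col6a1, Col6a2 and Col6a6 of the beaded filament, Col8a1 of the short-chain network, Col23a1 of the transmembrane collagens, and Col26a1 and Col28a1, which belong to no larger family. By day 28 the same 10 genes, all of these except Col6a6, had risen in the labelled wild type and in the labelled knockout. The 6 collagen IV genes, the anchoring fibril gene Col7a1 and all 3 collagen IX genes were called in no time comparison of that fit. With the replicate number as a block, which paired the arrays in every time comparison of the labelled knockout, Col7a1 and Col9a1 were lower there on day 28 than on day 2 (-0.86 and -0.84, limma adjusted p = 0.00631 and 0.00618). With that block Col9a2 was higher there on days 10 and 28, and Col9a3 on day 10. The same block also called Col7a1 and Col9a1 lower on day 28 in the labelled wild type (limma adjusted p = 0.00602 and 0.000165). Replicate numbers did not pair the arrays of that comparison.

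In the labelled wild type 11 of the 34 genes (32.4%) were called higher on day 10 than on day 2, where 14.4% of all 14892 tested genes were called higher and 16.2% lower (limma, adjusted p under 0.05 over all tested genes). Here and below the 34 include the 2 genes not tested, while the shares beside them are of tested genes only. On day 28 it was 10 of the 34 (29.4%), beside 19.6% of all tested genes higher and 19.2% lower. In the labelled knockout 7 (20.6%) were called higher on day 10, beside 11.1% higher and 13.6% lower among all tested genes, and 10 (29.4%) on day 28, beside 19.4% higher and 18.6% lower. With the replicate block 11 collagen genes were called in the labelled knockout on day 10, beside 30.2% of all tested genes, and 15 on day 28, beside 42.7%, in either direction. The median change over the 32 tested collagen genes on day 28 was 0.17 in the labelled wild type and 0.39 in the labelled knockout, beside -0.034 and -0.022 over all tested genes. The day 10 and day 28 comparisons share their day 2 arrays.

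**Figure D1:**
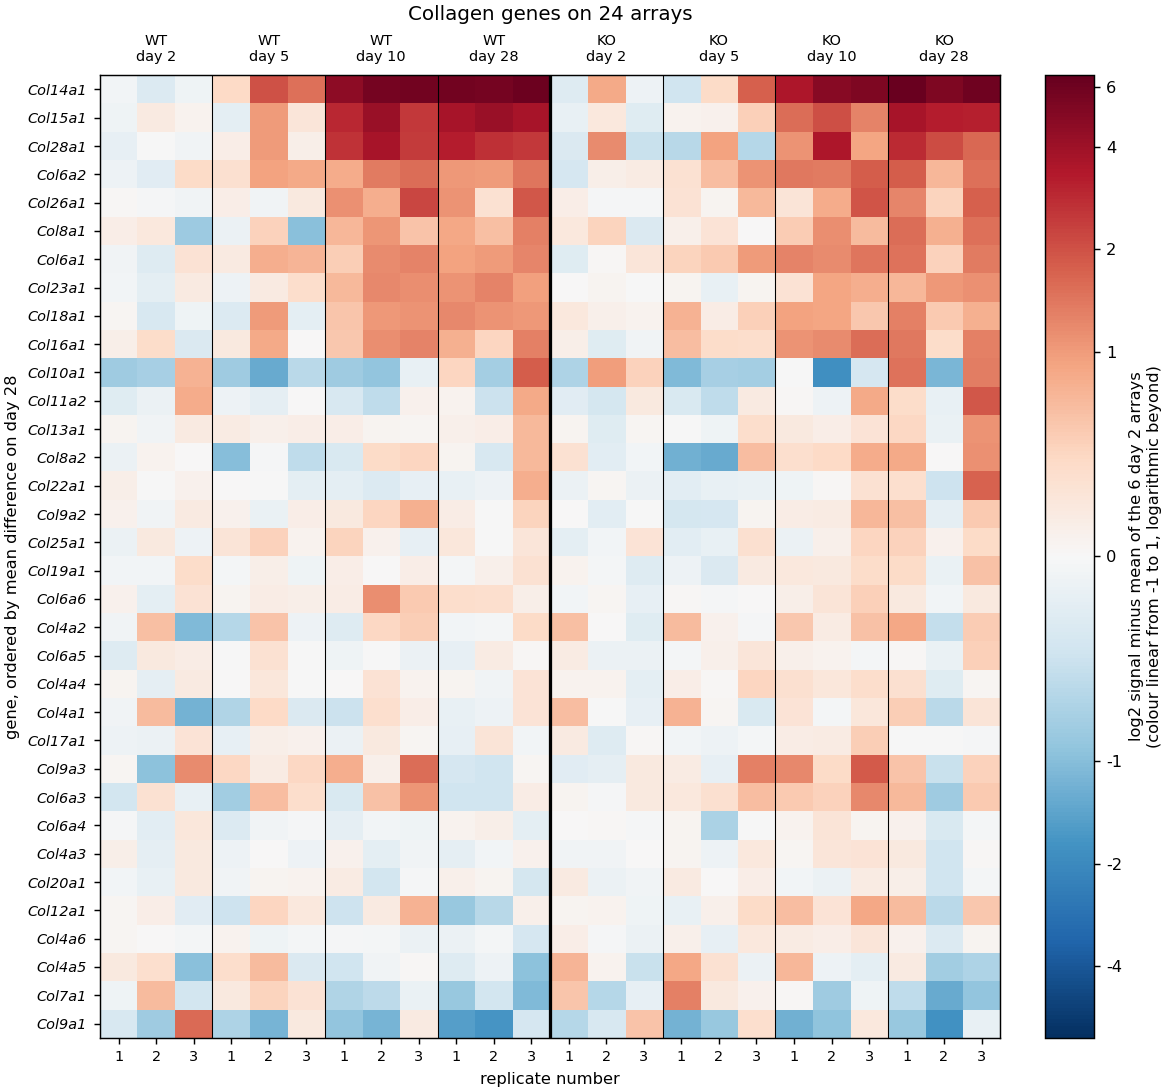
Log2 signal of the 34 collagen genes on each of the 24 arrays, as the difference from the mean of the 6 day 2 arrays, with genes ordered by their mean difference on day 28 and arrays grouped by labelled genotype (WT, KO) and day. The rows at the top (Col14a1, Col15a1, Col28a1) darken on days 10 and 28 in both genotypes, Col7a1 and Col9a1 lie at the bottom, and the colour is linear from -1 to 1 and logarithmic beyond.

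Col14a1 had the largest rise of the 32 tested genes. It encodes collagen XIV, a fibril-associated collagen found on collagen I fibrils in skin, tendon and periosteum. Its 3 arrays of the labelled wild type read 4.89, 4.63 and 4.84 on day 2, 5.41, 6.94 and 6.44 on day 5, 9.51, 10.59 and 10.75 on day 10, and 10.73, 10.66 and 11.05 on day 28. The labelled knockout arrays read 4.65, 5.84 and 4.83 on day 2, 4.48, 5.39 and 6.70 on day 5, 8.47, 9.81 and 10.22 on day 10, and 11.17, 10.22 and 10.86 on day 28. Every array of days 10 and 28 lay above every array of days 2 and 5 in both labelled genotypes, and day 2 values other than that of array 2 of the labelled knockout were close to the array medians. From day 2 to day 28 the log2 difference was 6.03 (SE 0.51, 65.2-fold, limma adjusted p = 4.47e-08) in the labelled wild type and 5.65 (SE 0.51, 50.2-fold, adjusted p = 1.75e-07) in the labelled knockout. Differences between days made up 94% of the variance of Col14a1 over the 24 arrays, and the spread within groups 4.8%.

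Of the other fibril-associated genes Col16a1 was the only one called against day 2 without the block. Collagen XVI lies at fibrils and in the matrix near basement membranes. Col16a1 on arrays labelled wild type read 7.13, 7.43 and 6.65 on day 2, 7.23, 7.89 and 7.00 on day 5, 7.63, 8.13 and 8.25 on day 10, and 7.82, 7.50 and 8.29 on day 28. Those labelled knockout read 7.13, 6.71 and 6.91, then 7.72, 7.42 and 7.41, then 8.08, 8.16 and 8.54, and finally 8.4, 7.42 and 8.27 on the same days. All day 28 arrays lay above all day 2 arrays of their genotype. The day 28 difference was 0.80 (SE 0.28, limma adjusted p = 0.0261) in the labelled wild type and 1.11 (SE 0.28, adjusted p = 0.00328) in the labelled knockout. The labelled wild type call was lost when array 3 of day 2, or array 1 or 3 of day 28, was left out (limma adjusted p reaching 0.141). Its day 10 call (0.94) was lost when array 3 of either day was left out (reaching 0.0821).

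Both multiplexin genes rose, Col15a1 by more than Col18a1. Collagen XV lies between basement membranes and the fibrils beneath them, as in muscle, vessels and fat, and collagen XVIII is a basement membrane proteoglycan whose end fragment is endostatin. Col15a1 in the labelled wild type read 4.68, 4.98 and 4.86 on day 2, 4.55, 5.78 and 5.05 on day 5, 7.70, 8.91 and 7.29 on day 10, and 8.47, 8.92 and 8.48 on day 28. For the labelled knockout Col15a1 read 4.60, 5.03 and 4.49 on day 2, 4.85, 4.87 and 5.33 on day 5, 6.30, 6.81 and 6.03 on day 10, and 8.44, 8.04 and 7.90 on day 28. The labelled wild type had thus covered most of its rise by day 10, while the labelled knockout stood between its day 5 and day 28 arrays with no overlap with either. The day 28 difference from day 2 was 3.78 (SE 0.33, 13.8-fold, limma adjusted p = 6.92e-08) in the labelled wild type and 3.42 (SE 0.33, 10.7-fold, adjusted p = 3.42e-07) in the labelled knockout.

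Col18a1 read 6.06, 5.63 and 5.90 on day 2, 5.68, 7.02 and 5.78 on day 5, 6.66, 7.04 and 7.10 on day 10, and 7.19, 7.10 and 7.04 on day 28 in the labelled wild type. The labelled knockout had 6.25, 6.12 and 6.09, then 6.83, 6.19 and 6.56, then 6.95, 6.93 and 6.64, and 7.31, 6.62 and 6.85. Day 10 and day 28 arrays lay above all day 2 arrays in both labelled genotypes, and on day 5 replicate 2 of the labelled wild type stood above the other two. By day 28 Col18a1 was 1.24 higher (SE 0.26, 2.37-fold, limma adjusted p = 0.000787) in the labelled wild type and 0.78 higher (SE 0.26, adjusted p = 0.0231) in the labelled knockout. The latter call was lost when array 2 or 3 of day 2, or array 1 of day 28, was left out (limma adjusted p reaching 0.123). On day 10 the labelled knockout missed the threshold (0.69, limma adjusted p = 0.06), and passed it with the replicate block (adjusted p = 0.0453).

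Col28a1 and Col26a1 stand outside the larger families and rose in both labelled genotypes. Collagen XXVIII carries von Willebrand factor domains like those of collagen VI and is best known from peripheral nerve, and collagen XXVI was described in testis and ovary. On arrays labelled wild type Col28a1 read 4.90, 5.08 and 5.02 on day 2, 5.26, 6.09 and 5.24 on day 5, 7.71, 8.81 and 7.55 on day 10, and 8.31, 7.83 and 7.57 on day 28. On those labelled knockout it read 4.75, 6.26 and 4.58, then 4.45, 6.04 and 4.42, then 6.18, 8.54 and 6.03, and 7.97, 7.2 and 6.71. Replicate 2 of the labelled knockout was the highest of its group on days 2, 5 and 10, so that day 10 overlapped day 2 there. Its rise to day 28 was 2.90 (SE 0.58, 7.48-fold, limma adjusted p = 0.000527) in the labelled wild type and 2.10 (SE 0.58, 4.28-fold, adjusted p = 0.00709) in the labelled knockout. The day 10 call in the labelled knockout (1.72, limma adjusted p = 0.0357) was lost when array 1 or 3 of day 2 or array 2 of day 10 was left out, and in a fit of those groups alone (reaching 0.248).

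Col26a1 was not called on day 5, and its arrays spread widely from day 10 on. The labelled wild type read 5.79, 5.74 and 5.68 on day 2, 5.92, 5.69 and 5.99 on day 5, 6.87, 6.62 and 7.95 on day 10, and 6.85, 6.13 and 7.64 on day 28. The labelled knockout read 5.92, 5.73 and 5.74, then 6.10, 5.83 and 6.52, then 6.07, 6.64 and 7.72, and 6.99, 6.29 and 7.53. Replicate 3 was highest on days 10 and 28 in both labelled genotypes, and no array of those days reached down to day 2. By day 28 the difference from day 2 was 1.14 in each labelled genotype (SE 0.40, 2.2-fold, limma adjusted p = 0.0289 in the labelled wild type and 0.0295 in the labelled knockout). Each of these calls was lost when any of the 3 day 2 arrays, or array 1 or 3 of day 28, was left out (limma adjusted p reaching 0.178 and 0.1465). On day 10 the labelled wild type call (1.41, limma adjusted p = 0.0106) was lost when array 3 of that day was left out (0.0738). The day 10 value of the labelled knockout (1.01, limma adjusted p = 0.0706) passed with the replicate block (adjusted p = 0.0194).

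**Figure D2:**
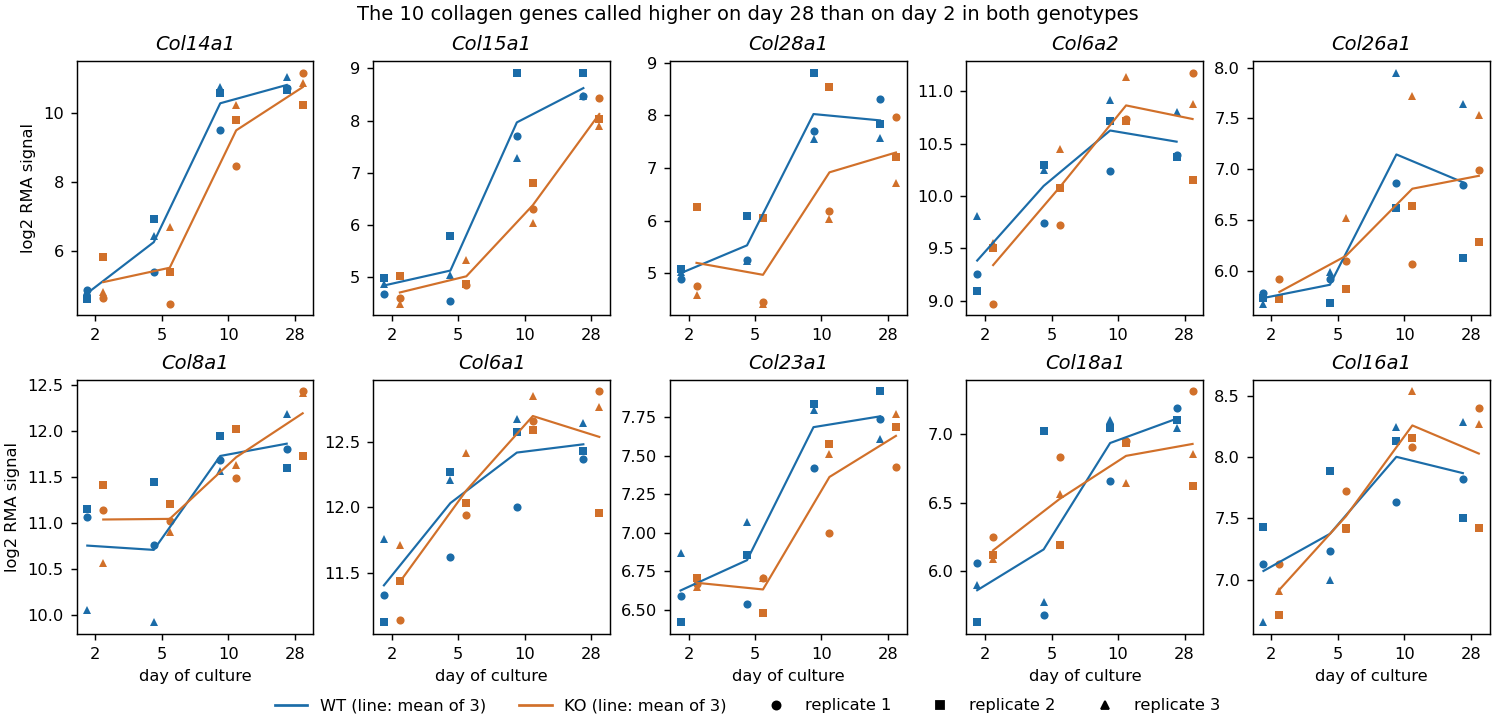
Log2 RMA signal (vertical axes) of the 10 collagen genes called higher on day 28 than on day 2 in both labelled genotypes, against day of culture, with 1 point per array, shape for replicate number and lines through the means of 3 arrays. Col14a1 and Col15a1 lie between 4.49 and 5.84 on day 2 and between 7.9 and 11.17 on day 28, and on day 10 the 3 Col15a1 points labelled KO lie below the 3 labelled WT.

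Within collagen VI the signals of the chains had parted by day 28. Collagen VI filaments are assembled from α1, α2 and α3 chains, the products of Col6a1, Col6a2 and Col6a3, and the chains of Col6a4, Col6a5 and Col6a6 can stand in for α3. Col6a1 and Col6a2 rose in both labelled genotypes, and Col6a3 was called in no comparison of the fit over all 24 arrays. Col6a1 in the labelled wild type read 11.33, 11.12 and 11.76 on day 2, 11.62, 12.27 and 12.21 on day 5, 12, 12.58 and 12.68 on day 10, and 12.37, 12.43 and 12.65 on day 28. The labelled knockout read 11.14, 11.44 and 11.71, then 11.94, 12.03 and 12.42, then 12.66, 12.59 and 12.85, and 12.89, 11.96 and 12.77. All arrays of days 10 and 28 lay above all day 2 arrays of the same genotype. The day 28 difference was 1.08 (SE 0.25, 2.11-fold, limma adjusted p = 0.00162) in the labelled wild type and 1.11 (SE 0.25, 2.16-fold, adjusted p = 0.00133) in the labelled knockout. A second cluster named Col6a1 followed the first over the 24 arrays (r = 0.98, description).

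Col6a2 read 9.25, 9.09 and 9.81 on day 2, 9.74, 10.30 and 10.25 on day 5, 10.24, 10.72 and 10.92 on day 10, and 10.39, 10.37 and 10.80 on day 28 in the labelled wild type. On arrays labelled knockout it read 8.97, 9.5 and 9.55, then 9.72, 10.08 and 10.45, then 10.74, 10.72 and 11.14, and 11.18, 10.15 and 10.88. Days 10 and 28 again lay wholly above day 2 in both. Its day 28 difference was 1.14 (SE 0.27, 2.2-fold, limma adjusted p = 0.00211) in the labelled wild type and 1.40 (SE 0.27, 2.64-fold, adjusted p = 0.000374) in the labelled knockout. Col6a3, shown because its partners rose, read 9.75, 10.53 and 10.00 on day 2 and 9.71, 9.70 and 10.36 on day 28 in the labelled wild type, and 10.24, 10.14 and 10.40 against 10.93, 9.35 and 10.79 in the labelled knockout. Its day 2 and day 28 arrays overlapped in both labelled genotypes, with differences of -0.17 (95% interval -1.03 to 0.69) and 0.10 (-0.77 to 0.96). On day 10 the Col6a3 mean in the labelled wild type was 10.64, against 10.09 on day 2, and the arrays overlapped. In the labelled knockout it was 10.96 against 10.26, with no overlap of the arrays. That difference (0.70, limma adjusted p = 0.24) passed in a fit of those groups alone (adjusted p = 0.0403).

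Whether the chains changed unequally was tested on the difference between 2 chains of each array, by exact permutation of the day labels within each genotype (400 relabellings, two-sided, adjusted over the 10 pairs of partner chains). The 10 pairs were listed for correlations without a test, and this test was added later. It did not use the replicate numbers, although these paired the labelled knockout arrays of days 2 and 28. Whether the probes of partner genes follow RNA amount alike was not tested, so unequal signal changes need not be unequal RNA changes. From day 2 to day 28 Col6a1 gained 1.13 and Col6a2 gained 1.31 on Col6a3 (exact permutation test, adjusted p = 0.0125 each, the raw p of 0.005 being the smallest these relabellings can give). Day 28 arrays lay wholly above day 2 arrays for both differences in both labelled genotypes, and without any of the 12 arrays in turn the gains stayed between 0.95 and 1.44 (adjusted p up to 0.0333). Between Col6a1 and Col6a2 themselves the difference changed by -0.18, which did not pass (exact permutation test, adjusted p = 0.0571): it was -0.06 with overlapping days in the labelled wild type and -0.29 without overlap in the labelled knockout. Over the 24 arrays Col6a1 and Col6a2 correlated at 0.99, and 0.96 after the group means were removed, while Col6a1 and Col6a3 correlated at 0.55 and 0.79. These points share arrays, may share preparations across days, and are descriptions.

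Col6a6, an α3-like chain, was called on day 10 in the labelled wild type (0.57, SE 0.19, limma adjusted p = 0.0248). Its arrays there read 5.32, 6.29 and 5.76 on day 10 against 5.25, 4.92 and 5.49 on day 2, and the groups overlapped. That call was lost when array 1 or 2 of day 2 or array 2 of day 10 was left out, and in a fit of those groups alone (limma adjusted p reaching 0.186), and by day 28 the difference was 0.24 and 0.20 in the 2 labelled genotypes. Col6a4 and Col6a5 stayed between 3.57 and 4.77 on all 24 arrays, at or below most array medians.

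Col6a1 and Col6a2 are next to each other in the RefSeq gene order of GRCm38.p6, with 0 coding genes between them, while Col6a3 is on another chromosome. Their upstream sequences are shown because these genes had unequal courses: 220 bases of each, from 250 to 31 bases before the start listed in the RefSeq promoter table (GRCm38.p6), 5′ to 3′ along the gene, all on the minus strand. That start was the gene's outermost for Col6a1 and Col6a2, and lay 30 bases inside the gene for Col6a3, whose window thus ends next to the annotated gene. The windows are chr10:76726075-76726294 for Col6a1, chr10:76623661-76623880 for Col6a2 and chr1:90844002-90844221 for Col6a3. Capitals mark exact matches on either strand to any of 5 motifs searched: TATAAA, the core promoter box, then CCAAT, the box named for it, then GGGCGG, known from Sp1 sites, then TGACTCA, known from AP-1 sites, and finally the pyrimidine-rich motif CCTCCC.
Col6a1: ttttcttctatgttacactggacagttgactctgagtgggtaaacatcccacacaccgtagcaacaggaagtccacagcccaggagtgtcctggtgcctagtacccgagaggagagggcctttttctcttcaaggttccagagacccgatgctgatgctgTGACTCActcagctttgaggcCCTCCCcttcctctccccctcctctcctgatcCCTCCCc
Col6a2: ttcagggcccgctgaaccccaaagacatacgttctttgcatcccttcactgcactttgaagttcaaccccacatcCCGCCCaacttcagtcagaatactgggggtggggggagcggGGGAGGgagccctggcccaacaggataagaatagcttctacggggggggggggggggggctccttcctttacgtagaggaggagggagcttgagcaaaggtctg
Col6a3: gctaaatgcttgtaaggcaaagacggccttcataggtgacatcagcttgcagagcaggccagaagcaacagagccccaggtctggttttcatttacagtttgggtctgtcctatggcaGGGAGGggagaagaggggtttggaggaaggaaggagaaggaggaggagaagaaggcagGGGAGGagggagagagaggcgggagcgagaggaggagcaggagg
The Col6a1 window held 1 TGACTCA and 2 CCTCCC, the Col6a2 window 1 GGGCGG and 1 CCTCCC, and the Col6a3 window 2 CCTCCC. No marked match overlapped another, and TATAAA and CCAAT were in none of the 3 windows. The windows stopped 31 bases before the listed start, so matches nearer to that start were not searched for. Absence from a window is therefore not absence from the promoter. Among 32851 windows of the same length in that RefSeq table, 9.95% held TATAAA, 31% CCAAT, 28.5% GGGCGG, 4.01% TGACTCA and 33.6% CCTCCC. GC content was 55%, 59.1% and 56.4%, beside a median of 51.8% over all windows. A match is a run of letters and was not tested as a binding site.

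**Figure D3:**
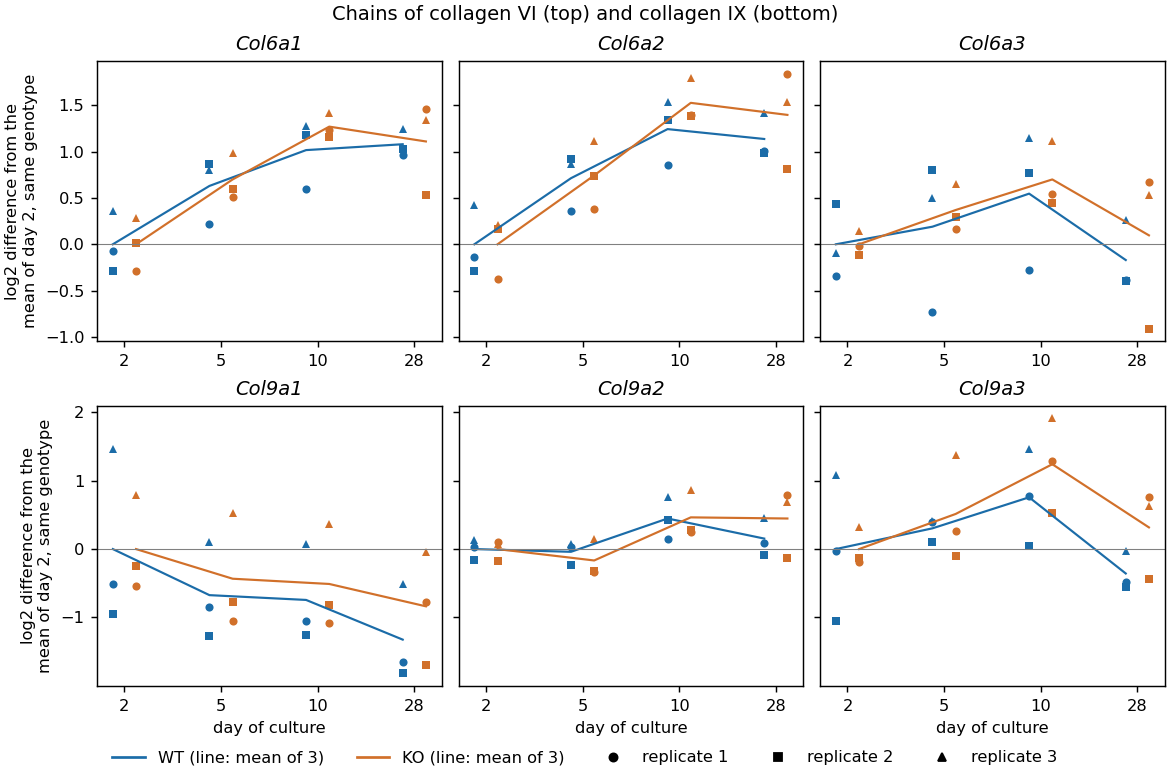
Log2 difference of each array from the day 2 mean of its own labelled genotype (vertical axes) for the 3 main chains of collagen VI and the 3 chains of collagen IX, against day of culture, with 1 point per array and lines through means of 3. Col6a1 and Col6a2 lie above 0 on every array of days 5, 10 and 28, Col6a3 straddles 0 on day 28, and the Col9a1 point of replicate 3 is the highest of its group on every day.

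Of the short-chain network genes only Col8a1 was called. Collagen VIII is a component of vessel walls and of the membrane under the corneal endothelium, with α1 and α2 chains from Col8a1 and Col8a2, and collagen X (Col10a1) marks hypertrophic cartilage. Col8a1 read 11.06, 11.15 and 10.05 on day 2, 10.76, 11.44 and 9.92 on day 5, 11.68, 11.94 and 11.56 on day 10, and 11.80, 11.60 and 12.18 on day 28 in the labelled wild type. The labelled knockout values were 11.14, 11.41 and 10.56, then 11.02, 11.21 and 10.90, then 11.49, 12.02 and 11.63, and 12.43, 11.73 and 12.41. Replicate 3 was the lowest array on days 2 and 5 in both, and all arrays of days 10 and 28 exceeded all day 2 arrays. The day 28 difference was 1.11 (SE 0.33, 2.15-fold, limma adjusted p = 0.0108) and 1.16 (SE 0.33, 2.23-fold, adjusted p = 0.00845). It lost its call in the labelled wild type when array 3 of either day was left out (limma adjusted p reaching 0.0874), and in the labelled knockout when array 3 of day 2 was (0.0585). The labelled wild type call on day 10 (0.98) was lost when array 3 of day 2, or array 1 or 2 of day 10, was left out (reaching 0.1845).

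Col8a2 differed by 0.16 and 0.65 on day 28 (limma adjusted p = 0.798 and 0.25). In the exact permutation test Col8a1 gained 0.73 on Col8a2 (adjusted p = 0.0333), a call kept in 5 of the 12 tests that left out an array (adjusted p up to 0.0786 in the rest). The gain was 0.95 in the labelled wild type, without overlap of the days, and 0.51 in the labelled knockout, with overlap. Col10a1 varied widely within groups, so that 62.1% of its variance lay there. On day 28 Col10a1 read 6.75, 5.45 and 8.05 in the labelled wild type and 7.72, 5.13 and 7.58 in the labelled knockout, against 5.41, 5.48 and 7.07 and 5.53, 7.23 and 6.79 on day 2. Replicate 2 was the lowest on day 28 in both, the groups overlapped, and the differences of 0.76 and 0.29 did not pass (limma adjusted p = 0.396 and 0.771).

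Among the transmembrane collagens Col23a1 rose and the others were not called. Col23a1 read 6.59, 6.42 and 6.87 on day 2, 6.54, 6.86 and 7.07 on day 5, 7.42, 7.84 and 7.80 on day 10, and 7.74, 7.92 and 7.61 on day 28 in the labelled wild type. The labelled knockout had 6.67, 6.71 and 6.65, then 6.71, 6.48 and 6.71, then 7.00, 7.58 and 7.51, and 7.43, 7.69 and 7.77. Days 10 and 28 stood above day 2 without overlap in both labelled genotypes. By day 28 the difference was 1.14 (SE 0.17, 2.2-fold, limma adjusted p = 3.3e-05) in the labelled wild type and 0.96 (SE 0.17, 1.94-fold, adjusted p = 0.000212) in the labelled knockout, and no alternative ended either call. Of the others, Col13a1, whose product gathers at the nerve-muscle junction, differed by 0.29 and 0.53 (limma adjusted p = 0.33 and 0.0652, or 0.0189 for the labelled knockout with the replicate block). Col17a1, a hemidesmosome component, differed by -0.01 and 0.01, and Col25a1, known from neurons, by 0.19 and 0.36.

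None of the 6 collagen IV genes was called in any of the comparisons made. The α1 and α2 chains (Col4a1 and Col4a2) occur in nearly every basement membrane, and the α3 to α6 chains in fewer, such as that of the kidney glomerulus. Col4a1 ranged from 7.78 to 9.75 over the 24 arrays with a median of 8.95, and its day 28 differences from day 2 were 0.18 (95% interval -0.70 to 1.06) and -0.09 (-0.98 to 0.79). Only 0.9% of its variance lay between days and 91.7% within groups. On day 2 the labelled wild type arrays of Col4a1 read 8.85, 9.68 and 7.78, and those of Col4a2 read 8.65, 9.44 and 7.68, so that both genes had replicate 2 highest and replicate 3 lowest. Over the 24 arrays these genes correlated at 0.96, and at 0.98 once group means were removed. They lie next to each other in the RefSeq order, as do Col4a3 and Col4a4 (r = 0.66) and Col4a5 and Col4a6 (r = 0.47).

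Against Col4a2, Col4a1 shifted by -0.17 between day 2 and day 28 (exact permutation test, adjusted p = 0.02), and that call was kept in 10 of 12 tests that left out an array (adjusted p up to 0.075). The shift was -0.08 in the labelled wild type, where the days overlapped, and -0.26 in the labelled knockout, where they did not. Col4a5 differed by -0.34 and -0.56 by day 28 (limma adjusted p = 0.552 and 0.311) and Col4a6 by -0.20 and -0.05. Col4a3 and Col4a4 reached the array median on 6 and 12 of the 24 arrays, and their day 28 differences lay between -0.11 and 0.08.

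Collagen IX coats the collagen II fibrils of cartilage and is made of α1, α2 and α3 chains. Its genes took different courses here. Col9a1 read 6.47, 6.02 and 8.43 on day 2 and 5.33, 5.16 and 6.46 on day 28 in the labelled wild type, and 6.18, 6.47 and 7.51 against 5.95, 5.03 and 6.67 in the labelled knockout. Replicate 3 was the highest array in 8 of 8 groups, and the days overlapped. The differences of -1.32 (SE 0.62) and -0.84 (SE 0.62) did not pass the test (limma adjusted p = 0.0971 and 0.312). Both passed with the replicate block (limma adjusted p = 0.000165 and 0.00618), although replicate numbers paired only the labelled knockout arrays of these days. Col9a2 differed by 0.16 and 0.44 and Col9a3 by -0.35 and 0.32 on day 28, none past the test. With the block Col9a2 passed in the labelled knockout on day 28 (limma adjusted p = 0.0415) and Col9a2 and Col9a3 on day 10 (0.46 and 1.24, adjusted p = 0.0463 and 0.00386). In the labelled wild type on day 10, where the numbers did not pair, the block called Col9a1 lower (-0.74, limma adjusted p = 0.0162). It called Col9a2 and Col9a3 higher there (0.45 and 0.76, limma adjusted p = 0.0446 and 0.0486).

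Between day 2 and day 28 Col9a1 lost 1.38 against Col9a2 and 1.06 against Col9a3 (changes of -1.38 and -1.06, exact permutation test, adjusted p = 0.0125 each). In neither difference did the days overlap in either labelled genotype, and the calls stood without any of the 12 arrays in turn (changes from -1.58 to -0.95, adjusted p up to 0.0375). After removal of group means the 3 genes correlated at 0.73 to 0.85 over the 24 arrays. Col9a1 neighbours Col19a1 in the RefSeq order, and Col19a1 differed by 0.05 and 0.42 on day 28 (limma adjusted p = 0.868 and 0.0951).

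The gene of collagen XII, another collagen of fibril surfaces in tendon and periosteum, was called in no comparison of the fit over all 24 arrays. Col12a1 ranged from 11.13 to 12.92 with a median of 12.14, and its day 28 differences were -0.46 and 0.23 (limma adjusted p = 0.326 and 0.647). On day 28 its arrays read 11.13, 11.36 and 12.13 in the labelled wild type and 12.76, 11.39 and 12.66 in the labelled knockout. On day 10 the labelled knockout arrays all lay above those of day 2. That difference (0.63, limma adjusted p = 0.207) passed in a fit of those groups alone (adjusted p = 0.0357). Col12a1 correlated with Col6a3 at 0.91 over the 24 arrays and at 0.92 after group means were removed, a description over arrays that may share preparations. Col20a1 and Col22a1 differed by -0.08 and 0.10 in the labelled wild type and by -0.13 and 0.62 in the labelled knockout, with no call. On day 28 Col22a1, a collagen of tissue junctions such as muscle and tendon, read 5.92 on replicate 3 of the labelled wild type and 6.80 on replicate 3 of the labelled knockout, while its other arrays of that day lay between 4.59 and 5.47.

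Col7a1, the anchoring fibril collagen of skin, had, with Col9a1, the most negative day 28 differences from day 2. It read 6.13, 6.98 and 5.81 on day 2 and 5.34, 5.81 and 5.18 on day 28 in the labelled wild type, and 6.88, 5.56 and 6.04 against 5.63, 4.95 and 5.31 in the labelled knockout. No day 28 array of the labelled wild type exceeded a day 2 array, and the days overlapped in the labelled knockout. Its differences of -0.87 and -0.86 (SE 0.35 each) just missed the threshold (limma adjusted p = 0.0573 and 0.0598). With the replicate block both passed (limma adjusted p = 0.00602 and 0.00631), although replicate numbers did not pair the labelled wild type arrays of these days. Col11a2, the cartilage fibril gene, read 6.4, 5.81 and 7.2 on day 28 in the labelled wild type and 6.74, 6.14 and 8.20 in the labelled knockout, and replicate 3 was its highest array in 8 of 8 groups. Its day 28 differences were 0.02 and 0.86 (limma adjusted p = 0.982 and 0.127, or 0.00646 for the labelled knockout with the replicate block).

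Between consecutive days, most calls came between day 5 and day 10. Against day 2, no collagen gene was called on day 5 in either labelled genotype (0 of 34, beside 5.55% and 2.77% of all tested genes). At an unadjusted p under 0.05 there were 3 in each, beside 19.7% and 15.1% of all tested genes. With the replicate block, which paired both and called 9.17% and 4.67% of all tested genes, Col14a1 passed in the labelled wild type (1.48, limma adjusted p = 0.049 against 0.104 without) and Col6a1 in the labelled knockout (0.70, adjusted p = 0.0485 against 0.151). A fit of the groups compared alone also called 1 gene in the labelled wild type, Col14a1.

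From day 5 to day 10, 5 of the 34 genes rose in the labelled wild type (beside 6.02% of all tested genes called higher) and 3 in the labelled knockout (beside 2.58%), while the replicate block called 8 and 7 in either direction, beside 15.1% and 8.04% of all tested genes. Col14a1 rose by 4.02 and 3.98 (limma adjusted p = 5.83e-05 and 0.000271), Col15a1 by 2.84 and 1.36 (adjusted p = 2.17e-05 and 0.0237) and Col23a1 by 0.86 and 0.73 (adjusted p = 0.00306 and 0.0203). Col28a1 (2.49, limma adjusted p = 0.00864) and Col26a1 (1.28, adjusted p = 0.0454) were called in the labelled wild type only, and the difference between the genotypes was not tested for this interval. The Col28a1 call was lost when array 2 of day 10 was left out (0.0557). That of Col26a1 was lost in 8 of its alternatives, among them leaving out any array of days 5 and 10 other than array 2 of day 10 (limma adjusted p reaching 0.2005).

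For the labelled knockout the day 5 to day 10 calls of Col15a1 and Col23a1 were lost when array 1 or 2 of day 5 or array 2 of day 10 was left out, and that of Col23a1 also when array 3 of day 10 was (limma adjusted p reaching 0.125 and 0.116). The count was then 1 when the array left out was array 1 of day 5 or array 2 of day 10, and it was 0 in a fit of those groups alone (reaching 0.0659 for Col14a1). Of the genes called with the block but not in the fit without it, Col7a1 was lower on day 10 than on day 5 in both labelled genotypes (-0.87 and -0.84, limma adjusted p = 0.0186 and 0.0363), Col8a1 and Col18a1 higher in the labelled wild type, and Col28a1, Col6a2 and Col9a2 higher in the labelled knockout. Leaving out an array of these days also gave the calls of Col8a1, Col18a1, Col28a1 and Col6a2, without a block.

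From day 10 to day 28 no collagen gene was called in the labelled wild type (0 of 34, beside 1.02% of all tested genes, and 1 at an unadjusted p under 0.05, beside 10.5%). The labelled knockout had 1 call (beside 1.32% of all tested genes called higher): Col15a1 rose by 1.75 (SE 0.33, 3.36-fold, limma adjusted p = 0.00945), with day 28 wholly above day 10. That call was lost when array 1 or 3 of day 10 was left out and in a fit of those groups alone (limma adjusted p reaching 0.0704). Over the same interval Col15a1 differed by 0.65 in the labelled wild type (limma adjusted p = 0.508). The change in the labelled knockout minus that in the labelled wild type was 1.09 (SE 0.47), which did not pass over all genes (limma adjusted p = 0.9998, beside 0.00672% of all tested genes called), a comparison added after the data were seen.

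No collagen gene was called between the labelled genotypes on any day, in the mean over days, or in the difference of the changes from day 2. Beside these counts of 0 of 34, the share of all tested genes called was 0.00672% on day 2, 0.00672% on day 5, 0.0336% on day 10, 0.228% on day 28, 0.188% for the mean over days, and 0%, 0% and 0.00672% for the differences of changes on days 5, 10 and 28 (limma). At an unadjusted p under 0.05 there were 0, 0, 2 and 0 collagen genes on the 4 days, 1 in the mean over days, and 0, 1 and 0 in the differences of changes. The shares of all tested genes at that p were 1.42%, 2.66%, 7.74% and 5.71% on the 4 days, 9.38% in the mean over days, and 1.24%, 3.84% and 2.75% in the differences of changes. Col15a1 on day 10 came closest: its arrays labelled knockout (6.30, 6.81 and 6.03) all lay below those labelled wild type (7.70, 8.91 and 7.29). The difference was -1.59 (SE 0.33, 95% interval -2.28 to -0.89, limma adjusted p = 0.0791). It passed when array 3 of the labelled wild type or array 2 of the labelled knockout was left out (limma adjusted p = 0.00873 and 0.0337), while the highest adjusted p over its alternatives was 0.847, in a fit of those groups alone.

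Arrays of the labelled genotypes did not overlap for Col18a1 on day 2 (knockout higher), Col6a6 on day 5 (lower), Col15a1 (lower), Col19a1, Col22a1 and Col4a6 (higher) on day 10, and Col15a1 (lower) on day 28. That is 1, 1, 4 and 1 of the 32 tested genes, beside 6.19%, 7.16%, 11.7% and 9.35% of all tested genes on days 2, 5, 10 and 28. For Col28a1 on day 10 the groups overlapped and the difference was -1.10 (95% interval -2.31 to 0.11), and for Col14a1 it was -0.78 (-1.85 to 0.29). Intervals of this width leave room for differences of more than 2-fold in these genes.

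**Figure D4:**
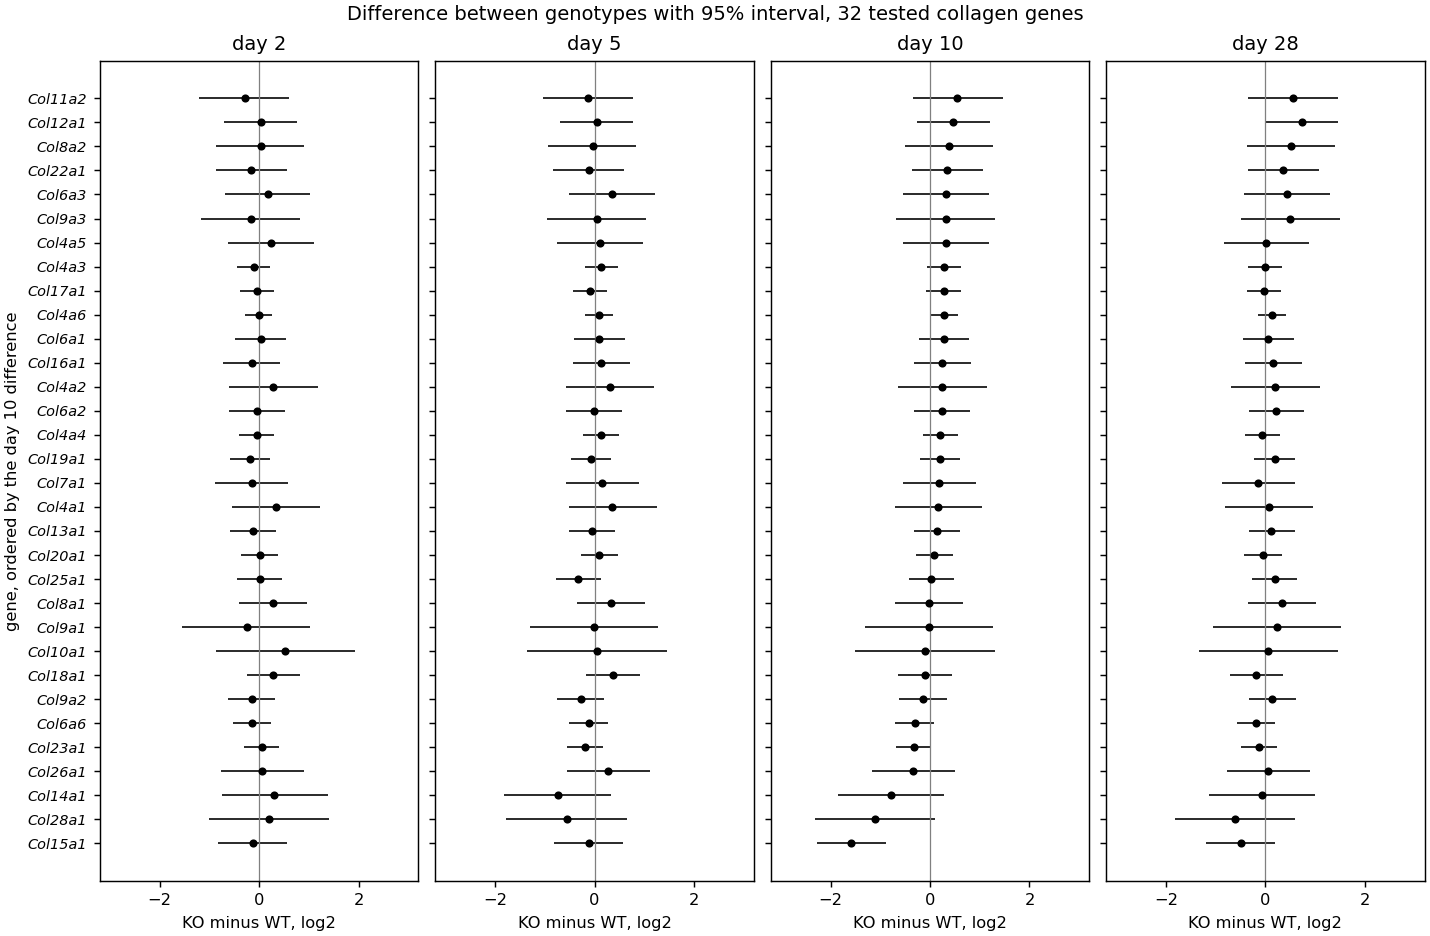
Difference between labelled genotypes (KO minus WT, log2, horizontal axes) with its 95% interval on each of the 4 days, for the 32 tested collagen genes ordered by the day 10 difference. Col15a1 on day 10 (-1.59) lies farthest from 0, and on days 2 and 5 every interval crosses 0.

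Several of these genes moved with markers of other cell types. Measured in bulk RNA, fewer cells of a type and less RNA per cell cannot be told apart. All 8 adipocyte genes measured rose by day 28 in both labelled genotypes (median change 5.45 and 3.53; Fabp4 by 7.49 and 6.12), as did all 8 macrophage genes (median 3.82 and 3.86; Mrc1 by 5.77 and 5.42). The mean of the adipocyte genes lay between 4.72 and 5.17 on day 2 and between 9.80 and 10.22 on day 28 in the labelled wild type, and between 4.63 and 5.18, and 8.60 and 8.93, in the labelled knockout. Col15a1 followed that mean over the 24 arrays (r = 0.95, and 0.46 after group means were removed). Its values were 0.86 and 0.36 with the macrophage mean, and 0.90 and 0.14 with the mean of 2 Schwann cell genes. Of these genes Sox10 stayed between 4.18 and 5.33 on all arrays, close to the array medians, while S100b ranged from 4.89 to 8.15.

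On day 10 the adipocyte mean was 5.07, 6.89 and 5.79 on the labelled knockout arrays and 9.29, 9.09 and 6.90 on the labelled wild type arrays, beside the Col15a1 values given above. In both sets replicate 2 had the highest Col15a1, and the labelled knockout lay below the labelled wild type in the adipocyte mean too. Fabp4, the fatty acid-binding protein of adipocytes, was called lower in the labelled knockout on day 10 (-5.10, limma adjusted p = 0.00791). The part of the adipocyte markers in the Col15a1 result was not tested.

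The macrophage mean was 6.32, 9.15 and 5.73 on the day 10 arrays of the labelled knockout, beside 6.18, 8.54 and 6.03 for Col28a1, and both were highest on replicate 2. On day 28 the macrophage mean there was 9.05, 10.69 and 7.39 beside 7.97, 7.2 and 6.71 for Col28a1, and only the macrophage mean was highest on replicate 2. Over all arrays Col28a1 correlated with the macrophage mean at 0.85 (0.71 after group means were removed) and with the adipocyte mean at 0.85 (0.53). The part of these markers in the Col28a1 rise was not tested. Col14a1 correlated with the adipocyte and macrophage means at 0.86 and 0.82, but at 0.05 and -0.01 after group means were removed. With the osteoblast mean its values were 0.75 and 0.49. With the mean of the 2 Schwann cell genes, of which Sox10 stayed close to the array medians, they were 0.92 and 0.38.

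Col26a1 went with the osteoblast markers, whose mean lay between 6.10 and 6.59 on day 2 and between 6.68 and 9.39 on day 28 in the labelled wild type. On the labelled knockout arrays that mean lay between 6.10 and 6.70 on day 2 and between 7.48 and 9.99 on day 28. Its correlation with that mean was 0.82, and 0.87 after group means were removed. The corresponding pairs of values were 0.66 and 0.77 for Col10a1, 0.72 and 0.75 for Col22a1, 0.78 and 0.86 for Col11a2 and 0.72 and 0.86 for Col9a2. With the mean of 8 chondrocyte genes the pairs were 0.51 and 0.76 for Col11a2 and 0.30 and 0.80 for Col9a2. On day 28 array 2 had the lowest osteoblast mean in both labelled genotypes, and it also had the lowest Col26a1, Col10a1, Col11a2 and Col9a2 of its group. For Col22a1 this held in the labelled knockout only, the labelled wild type arrays reading 4.90, 4.95 and 5.92. Col9a1 followed the chondrocyte mean (0.90 and 0.89), of which Acan and Col2a1 fell and Comp rose by day 28 in both labelled genotypes. The part of these markers in the results of the collagen genes was not tested.

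Endothelial cells carry much collagen IV, XV and XVIII in tissue. Of 10 endothelial genes 5 were not tested for low signal, Tie1, Emcn and Cldn5 lay below the array median on all 24 arrays, and the list mean stayed between 4.34 and 4.92. By day 28 Tek was called higher in both labelled genotypes and Kdr lower in the labelled wild type (-0.56, limma adjusted p = 0.0252), and no other endothelial gene was called. Of 8 smooth muscle and pericyte genes 5 fell and 1 rose by day 28 in both labelled genotypes, and none of the 3 epithelial genes tested was called. Of 2 Schwann cell genes measured S100b rose in both, and of 5 skeletal muscle genes tested 1 fell in the labelled wild type and 3 in the labelled knockout. Among all tested genes 19.6% were called higher and 19.2% lower by day 28 in the labelled wild type, and 19.4% and 18.6% in the labelled knockout. The r values above are descriptions over 24 arrays that share days and medium and may share preparations.

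**Figure D5:**
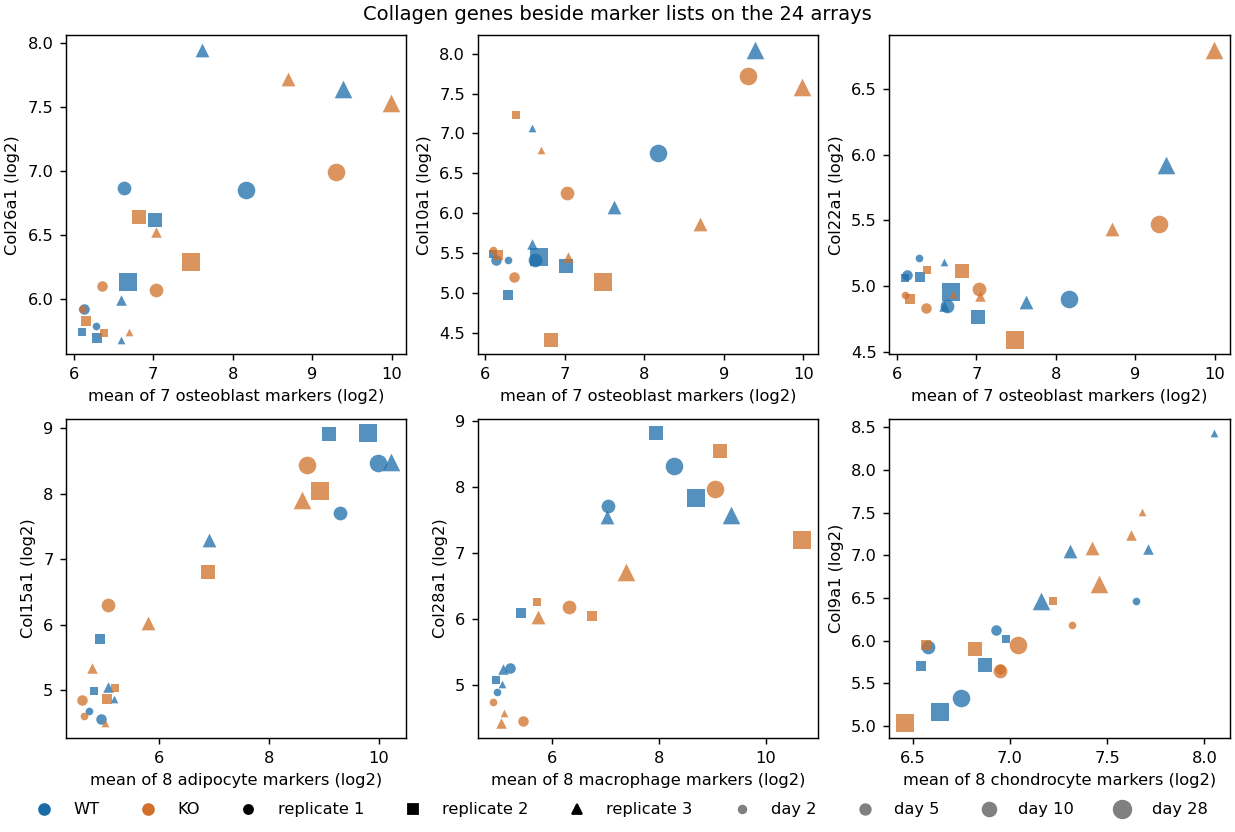
Log2 signal of 6 collagen genes (vertical axes) against the mean log2 signal of a marker list (horizontal axes) on the 24 arrays, coloured by labelled genotype, with shape for replicate number and size for day. Col15a1 rises with the adipocyte mean (r = 0.95), Col28a1 with the macrophage mean (0.85), Col9a1 with the chondrocyte mean (0.90) and Col26a1 with the osteoblast mean (0.82).

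The partners of these collagens were counted from lists of named genes. Beside their counts for day 28 against day 2, 19.6% of all tested genes were called higher and 19.2% lower in the labelled wild type. In the labelled knockout these shares were 19.4% and 18.6%. Of 23 basement membrane genes measured, 22 were tested: 7 rose and 2 fell by day 28 in the labelled wild type, and 11 rose and 1 fell in the labelled knockout. Of those past the threshold in the labelled wild type, the 4 with the largest changes were Smoc1 (2.74 there and 2.20 in the labelled knockout), Fbln1 (2.55 and 1.75), Smoc2 (1.98 and 2.29) and Frem1 (1.96 and 2.02). Fbln1 encodes fibulin 1, the Smoc genes encode matrix proteins related to SPARC, and Frem1 a basement membrane protein of developing skin. Chosen for their role after the values were seen, the nidogen genes, whose products tie collagen IV to laminin, rose as well (Nid1 by 1.02 and 1.04, Nid2 by 1.66 and 1.33). No collagen IV gene was called in either.

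Among 12 collagen receptor genes measured, 11 were tested. By day 28 Itga1 and Antxr1 rose and Cspg4, Itga11 and Itgb1 fell in the labelled wild type. Among those past the threshold there, the largest changes were those of Cspg4, a proteoglycan that binds collagen VI (-1.67), Itga11 (-1.43) and Itga1 (1.29), which encode chains of collagen-binding integrins, and Itgb1, their partner chain (-0.64). Of these, Cspg4 and Itgb1 also fell in the labelled knockout (-1.16 and -0.68) and Itga1 rose (1.27), while Itga11 did not pass (-0.74, limma adjusted p = 0.207). The labelled knockout had 6 receptor genes higher and 2 lower in all. Of the 10 fibril-forming collagen genes left out by the rule, 4 rose and 2 fell by day 28 in the labelled wild type, and 5 rose and 1 fell in the labelled knockout. The receptor and fibril-forming counts stand beside the same shares of all tested genes as the basement membrane counts.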

How the data were processed

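Transcript levels of 24 osteoblast cultures were measured on Mouse Gene 2.0 ST arrays (Affymetrix). The authors deposited log2 signals after RMA in Expression Console (versions not given), per the submitters' processing notes. Of 41345 transcript clusters 23521 carried 1 gene symbol, 1814 several and 16010 none. Values ran from 0.313 to 14.08, no pair of arrays was identical, and precision was limited by 3 arrays per group.

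From these values limma 3.58.1 in R 4.3.3 fitted 1 mean per labelled genotype and day over the 24 arrays (16 residual degrees of freedom). Genes at or above the array median on at least 3 arrays were tested (14892 of 22180), with Benjamini-Hochberg adjustment over all of them and calls at an adjusted p under 0.05. The fit was tested on simulated data. Chain differences used the exact permutation test, which was added to the planned correlations of partner chains and left out the replicate pairing described below.

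Replicate numbers paired the arrays where each of the 3 correlations of deviations between same-numbered arrays exceeded 0.1. This held for all labelled knockout time comparisons (lowest 0.105 for day 28 against day 2) and, in the labelled wild type, for day 5 against day 2 and day 10 against day 5. It did not hold for day 10 against day 2 (lowest 0.0828), for the other labelled wild type comparisons or between genotypes.

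The collagen genes and the lists (basement membrane partners, collagen receptors, and osteoblast, endothelial, adipocyte, macrophage, smooth muscle, chondrocyte, skeletal muscle, epithelial and Schwann cell markers) were chosen with earlier results of these data known. Array values were to be given for the 12 genes with the largest mean day 28 change among those called in both genotypes, of which there were 10, and for genes called between genotypes, of which there were 0. Those of other collagen genes were added after their values were seen. From each list up to 4 genes with the largest changes past the threshold in the labelled wild type were named.

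Alternatives were no filter and a stricter one (12 arrays), centring on array medians, a prior variance that follows the mean, the mean of a gene's clusters, a replicate block (random or fixed), a fit of the compared groups alone, and leaving out each array.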

Additional observations from a re-analysis of the deposited data

Results flagged for a closer look

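For 2 collagen genes every array of the labelled wild type moved one way and every array of the labelled knockout the other between day 2 and day 10, relative to the day 2 mean. Col11a2 changed by -0.43 in the labelled wild type and 0.41 in the labelled knockout, a difference of 0.84 (limma adjusted p = 0.999). Col4a6 changed by -0.07 and 0.21, a difference of 0.29 (limma adjusted p = 0.999). Neither difference passed the test, and the share of all tested genes with such a pattern was not counted. Col4a6 lay between 4.33 and 5 on all arrays, close to the array medians. Groups of 3 arrays are too small to be screened for outlying arrays.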

How the results depend on the processing

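Of 47 called results of collagen genes, 30 kept their call in every alternative run, 17 lost it in at least 1 and 0 reversed, and 30 further results were called only in an alternative. With a fixed replicate block 1 gene was called for day 5 against day 2 in each labelled genotype (0 without). It called 8 genes for day 10 against day 5 in the labelled wild type, and 11 for day 10 against day 2 and 7 for day 10 against day 5 in the labelled knockout. In the unpaired comparison of day 28 with day 2 in the labelled wild type, it called 12 genes, adding Col7a1 (-0.87, limma adjusted p = 0.00602) and Col9a1 (-1.32, adjusted p = 0.000165) as lower. In the unpaired comparison of day 10 with day 2 there, it added Col9a1 as lower and Col9a2 and Col9a3 as higher. For the labelled genotypes on day 10, whose numbers did not pair, the block called 1 gene, Col15a1 (limma adjusted p = 0.0226). A random block called 5 genes for day 10 against day 5 in the labelled knockout. Fits of the compared groups alone called 1 gene for day 5 against day 2 in the labelled wild type, and 0 for day 10 against day 5 and 0 for day 28 against day 10 in the labelled knockout. Leaving out 1 array gave 9 to 10 calls for day 10 and 7 to 11 for day 28 against day 2, and 4 to 6 for day 10 against day 5, in the labelled wild type. For the labelled knockout the ranges were 6 to 8, 7 to 15 and 1 to 5, and 0 to 1 for day 28 against day 10. The lowest day 28 counts of 7 came without array 3 of day 28 (labelled wild type) and without array 3 of day 2 (labelled knockout), and the count of 15 without array 2 of day 28 (labelled knockout). Between genotypes on day 10 the range was 0 to 1, and it was 0 in the other comparisons. The cause was not tested. Genes near the array median could not be told from background, and 3 arrays per group limit what was detectable.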
